A study of Mus musculus with 26 samples.

Results

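The genes described here encode the proteins of the cytosolic ribosome. They were taken from the count table by name: protein-coding genes whose symbol is Rpl or Rps followed by a digit, plus Rplp0, Rplp1, Rplp2 and Rpsa, without -ps names and Rps6k kinases, and with at least 260 counts summed over the 26 libraries. Of the 55487 genes in the table, 86 matched by name and 85 were kept, 51 with an Rpl name and 34 with an Rps name. The kept gene nearest to the threshold was Rpl39l with 543 counts, followed by Rpl36al with 801, and the gene left out was Rpl10l with 3. The names also took in the paralogs Rpl3l, Rpl7l1, Rpl22l1, Rpl36al, Rpl39l, Rps27l and Rps27rt, and Rps19bp1, which by its name is a binding protein of Rps19. The 85 genes lie on 19 chromosomes, with 4 on the X chromosome.

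Ribosomal proteins assemble with ribosomal RNA into a small subunit, which reads the mRNA, and a large subunit, which joins amino acids. Their mRNAs are among the most abundant in most cells, and they start with a run of pyrimidines, the 5′ terminal oligopyrimidine (TOP) motif, through which mTORC1 and Larp1 set how much they are translated. Expression of the family is commonly held in proportion, because the subunits need most of these proteins in equal numbers.

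The libraries came from mouse lung macrophages of 2 labelled cell types, resident alveolar macrophages (AM) and bone marrow (BM)-derived macrophages, after lipopolysaccharide (LPS) was given into the trachea. AM were taken without treatment (day 0, n = 3) and on day 1 (n = 4), day 3 (n = 3) and day 7 (n = 4) after LPS, and BM-derived macrophages on day 1 (n = 5), day 3 (n = 4) and day 7 (n = 3). The labels give no strain, genotype, sex or sorting gate, call only the untreated libraries young, and do not say whether replicates were separate mice, so a p-value here reflects how far these libraries spread, which may be technical. Libraries were made from poly(A)-selected RNA with a stranded kit.

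Total counts ran from 9176202 to 80816742 per library, and the 3 deepest libraries were those of AM day 0. The library names carry 1 number prefix for AM day 0, another for BM day 1 and a common one for the remaining 5 groups, so prefix and group cannot be told apart in any comparison with AM day 0 or BM day 1. Levels are given as CPM, counts scaled to 1000000 per library, and for single genes also corrected for RNA composition with TMM factors. Alveolar macrophage markers summed to 18811 to 32078 CPM in AM, to 1074 to 4595 CPM in BM day 1 and day 3, and to 14461, 15392 and 2590 CPM in BM day 7. BM day 7 replicate 3, the last of these, also stood apart with 27967 CPM of monocyte and recruited macrophage markers, against 11181 and 11601 CPM in the other replicates. BM day 3 replicate 1 stood apart with 29235 CPM of fibroblast markers and 7419 genes over 1 CPM, and BM day 1 replicate 3 had 9022 genes over 1 CPM. ENSMUSG00000118642, a gene without a symbol, held 2.69% to 5.74% of the counts of BM day 1 and at most 0.138% elsewhere. The summed level of 4 Y-linked genes was 148 to 239 CPM in AM day 0, day 1 and day 3, 0.149 to 4.02 CPM in AM day 7, 7.20 to 41.3 CPM in BM day 1 and 0.0995 to 3.75 CPM in BM day 7. Within BM day 3 it split, with 0.176 and 0.0495 CPM in replicates 1 and 2 and 176 and 171 CPM in replicates 3 and 4. Fits with this level as a covariate were run. The level did not overlap between AM day 7 and the earlier AM groups, or between BM day 1 and AM day 1. In those comparisons such a fit cannot tell the level from the group.

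The 5 BM day 1 libraries held the smallest share of ribosomal protein counts. The 85 genes took 2.23%, 2.13%, 1.63%, 2.68% and 2.24% of counts in BM day 1, and 4.77%, 6.31%, 4.42% and 4.47% in AM day 1. In untreated AM the shares were 3.07%, 3.40% and 4.66%. No BM day 1 library reached the lowest share of another group. AM day 3 held 4.30% to 4.48%, AM day 7 held 3.78% to 4.21%, BM day 3 held 3.95% to 4.60% and BM day 7 held 3.56% to 4.80%, and of these 4 groups only AM day 3 and AM day 7 did not overlap. Out of protein-coding counts alone, BM day 1 held 1.74% to 2.93%, still below the lowest value of 3.12% found in another group. Without replicate 3 the BM day 1 range was 2.13% to 2.68%. Processed copies of ribosomal protein genes moved with them, as the 307 pseudogenes with such names held 0.0559% to 0.0702% of counts in BM day 1 and 0.113% to 0.212% elsewhere. A share of a library cannot separate less ribosomal protein mRNA per cell from more of other RNA, and in bulk libraries fewer cells of a type and less RNA per cell cannot be told apart.

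**Figure D1:**
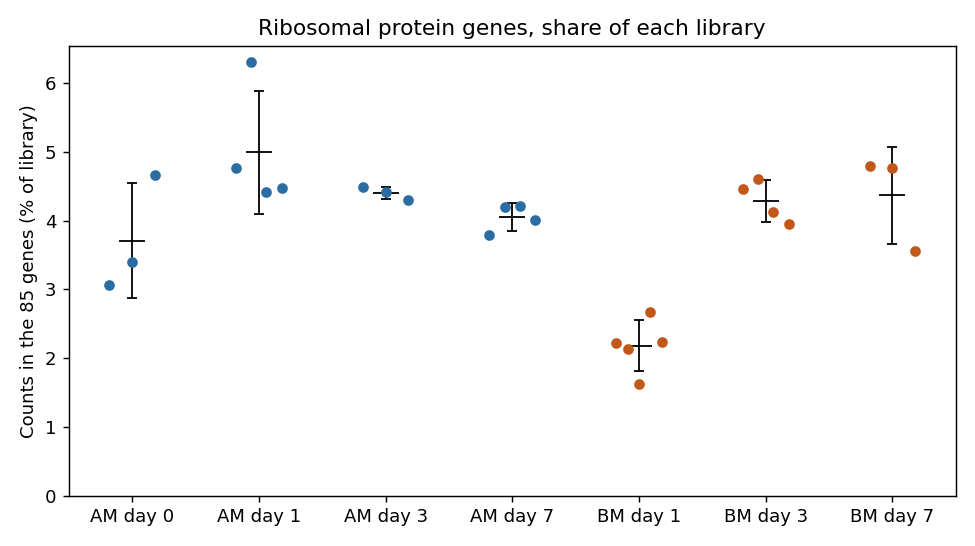
Percent of each library's counts in the 85 ribosomal protein genes (vertical axis), by cell type and day (horizontal axis). Points are libraries (blue AM, orange BM), bars mean ± SD; the 5 BM day 1 libraries lie between 1.63% and 2.68%, below every other library.

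All 85 genes passed the filter on low counts in the edgeR fit, in which 17143 genes were tested. Between the cell types at day 1, 76 of the 85 ribosomal protein genes were lower in BM-derived macrophages and 0 were higher, with edgeR's adjusted p under 0.05, and the 75 called by DESeq2 were all lower. Among all tested genes the same rule called 29%, and 13.8% were called lower and 15.2% higher. The median log2 fold change (BM less AM) of the 85 was −1.32, with quartiles of −1.71 and −0.98, against a median of 0.06 over all tested genes. In 72 of the 85 genes no BM day 1 library overlapped AM day 1, against 23.3% of all tested genes. Of the 76 genes, 67 were called in every fit run. Cell type markers also differed between these groups. The sum of the 8 neutrophil markers was 528 to 1358 CPM in BM day 1, against 95.9 to 541 CPM in AM day 1, with Camp at 0 in all AM day 1 libraries. Higher without overlap in BM day 1 were the 5 endothelial markers (172 to 425 against 33.7 to 70.4 CPM) and the 9 monocyte and recruited macrophage markers (2816 to 3331 against 665 to 1345 CPM). The 9 T and NK cell markers were lower without overlap (9.11 to 26.4 against 57.5 to 154 CPM), with Cd8a and Cd3d at 0 in all AM day 1 libraries. The part of these cells in the result was not tested.

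The P stalk, which recruits elongation factors to the large subunit, was lower in all of its 3 genes. Rplp1 had 374, 509, 326, 541 and 499 CPM in BM day 1 and 1416, 2054, 1263 and 1334 CPM in AM day 1, a log2 fold change of −1.75 ± 0.17 (SE, edgeR adjusted p = 1.0e-08). Rplp2 followed with −1.39 ± 0.25, and Rplp0, the base of the stalk, moved least with −0.78 ± 0.15. All libraries of 1 group lay apart from those of the other for these 3 genes.

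In the large subunit 39 of 43 genes were lower, with a median log2 fold change of −1.34, and the sizes spread widely. Rpl23a, which lines the exit of the peptide tunnel, had 9.95, 7.32, 25.8, 7.70 and 0.333 CPM in BM day 1 and 132, 101, 115 and 232 CPM in AM day 1 (log2 fold change −3.83 ± 0.57, edgeR adjusted p = 2.4e-05). Rpl21 had 11.4, 25.4, 21.5, 31.5 and 20.5 CPM against 252, 332, 257 and 222 CPM (−3.59 ± 0.30). The lowest AM day 1 library stood above the highest BM day 1 library for both genes. Rpl36a, on the X chromosome, was even among its BM day 1 libraries, at 36.2, 36.9, 41.2, 32.8 and 42.9 CPM, against 276, 477, 215 and 284 CPM in AM day 1 (−3.04 ± 0.24). Rpl22, an RNA-binding protein of the large subunit, followed at −2.50 ± 0.20.

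Rpl5 and Rpl11, which carry the 5S RNA into the ribosome and bind Mdm2, were lower by 1.88 and 1.57 on the log2 scale (log2 fold changes −1.88 ± 0.16 and −1.57 ± 0.19). Rpl10, which is added last before the subunits join, was at −1.10 ± 0.18. The smallest called differences were in Rpl3, which lies near the catalytic centre (−0.54 ± 0.15, edgeR adjusted p = 0.0086), and in Rpl7 (−0.55 ± 0.16). With the Y-linked covariate, or with only BM day 1 and AM day 1 in the model, both calls were lost, and that of Rpl7 in 5 of 36 other fits in all, 2 of them without AM day 1 replicate 2 or BM day 1 replicate 3. Rpl3 had 652, 568, 489, 792 and 672 CPM in BM day 1 and 981, 1006, 754 and 956 CPM in AM day 1. For Rpl3 and Rpl7 the libraries of the cell types overlapped, unlike for the genes with the large differences.

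In the small subunit 30 of 31 genes were lower, with a median log2 fold change of −1.19. Rps13 differed most, with 65.4, 136, 0.143, 93.9 and 116 CPM in BM day 1 and 478, 618, 407 and 429 CPM in AM day 1 (−2.55 ± 0.66, edgeR adjusted p = 0.0067). Replicate 3 of BM day 1 nearly lacked Rps13. It had 9 of the 85 genes at 0, and every other library had at most 3. Rps6, the substrate of the S6 kinases, was at −0.98 ± 0.16, Rpsa at −1.11 ± 0.15, Rps4x at −0.77 ± 0.16, and Rps27a, made as a fusion with ubiquitin, at −1.19 ± 0.36. The call of Rps27a was lost in 4 of 36 other fits, 1 of them without AM day 1 replicate 2, and that of Rps13 in the fit to the compared groups alone. Rps6, Rpsa, Rps4x and Rps27a did not overlap between the cell types.

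**Figure D2:**
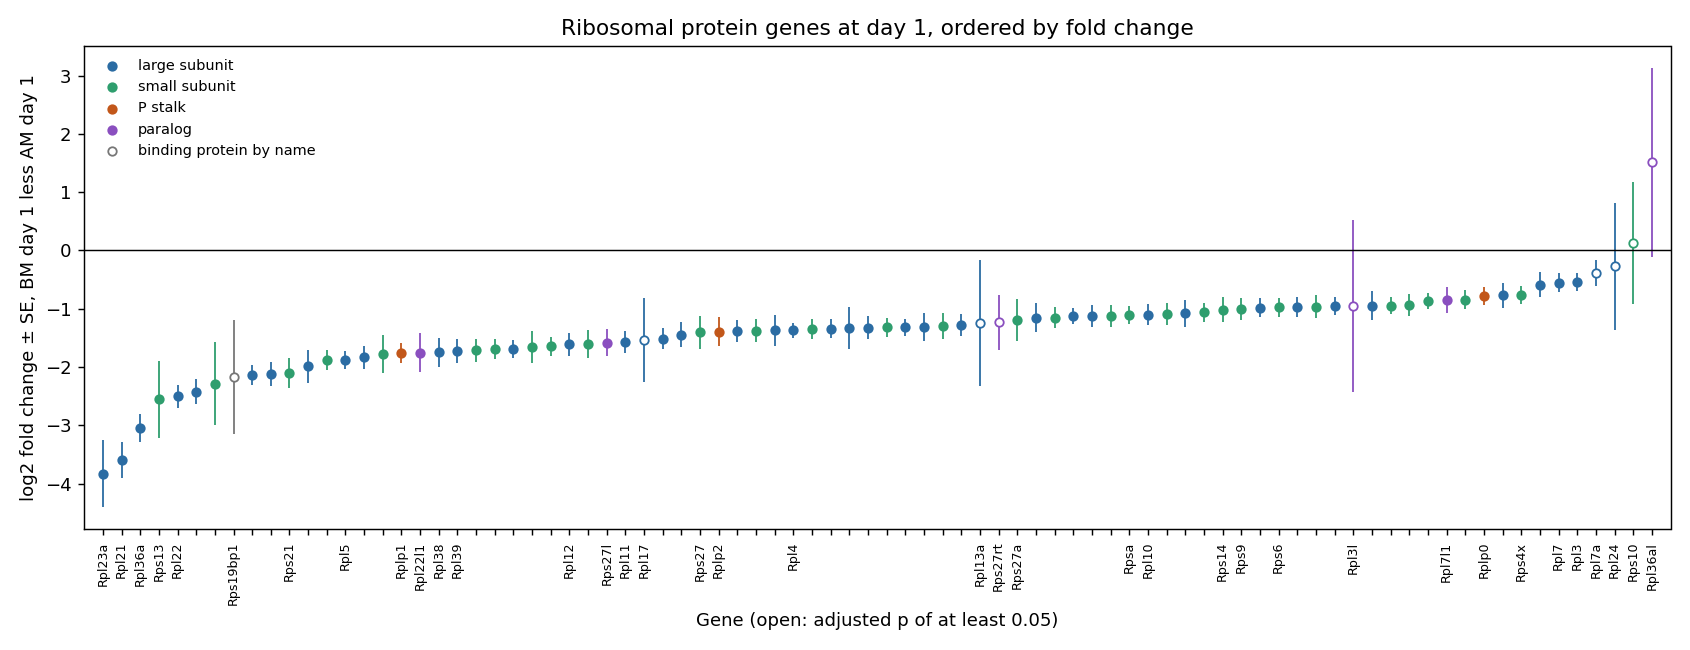
log2 fold change ± SE (vertical axis) of 84 ribosomal protein genes, BM day 1 (n = 5) less AM day 1 (n = 4), in rising order along the horizontal axis and coloured by class, with names given for some genes. Open circles did not pass edgeR's test; Rpl39l, at 0 counts in BM day 1, is left out, and the called genes run from −3.83 for Rpl23a to −0.54 for Rpl3.

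The 9 genes that did not pass the test at day 1 were Rpl7a, Rpl13a, Rpl17, Rpl24, Rpl36al, Rpl3l, Rps10, Rps27rt and Rps19bp1, all named because the count is small and chosen after their values were seen. Of these, 4 share over 50% of their exon bases on the same strand with another annotated gene: Rpl13a (59.3%, with Gm45713), Rpl24 (71.5%, with Gm28037), Rps10 (53.6%, with RPS10-NUDT3) and Rpl36al (63.1%, with Gm49383). These 4 genes held 11603, 1498, 3238 and 801 counts in all libraries together, and each overlapping gene held 0. Of the other 81 genes, 80 had no overlap of this kind and Rpl19 had 10.7%. How the authors' counting treated reads in such overlaps is not given in the sources used here, so the levels of these 4 genes are uncertain. Rpl13a, known for its role in silencing inflammatory mRNAs, was at 19.1, 41.9, 0 and 18 CPM in AM day 1 and at 12.3, 12.8, 0, 11.1 and 5.46 CPM in BM day 1, a difference that was not called (−1.24 ± 1.09, edgeR adjusted p = 0.42).

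Overlap on the other strand of at least 25% of exon bases was found in 5 genes, among them Rpl23a with 55.4%, and their median log2 fold change at day 1 was −1.88 against −1.32 in the other 80. Whether strand was used in the counting is not given in the sources used here. Reads could also be split between copies: 81 of the 85 genes share 50-base words with another annotated gene, with a median of 55.5% of their words. Across the 85 genes, which share their libraries, the day 1 fold change had a Spearman's rho of −0.02 with the share of such words and of 0.38 with coding length.

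Per kilobase of mRNA the levels also ordered the genes. Rplp1 was highest at 2183 CPM per kb, taken as the mean of the group means, then Rps14 at 1581 and Rps9 at 1458 CPM per kb. Rpl39l was lowest at 1.29 CPM per kb, below Rpl36al at 2.75 and Rpl3l, a paralog known from muscle, at 3.13. Variation was measured against the median of the 85 genes in the same library, for the 81 genes with a mean of at least 5 CPM. Those that varied most over the 26 libraries included Rpl23a (SD of 1.53 on the log2 scale), Rpl13a (1.38), Rps13 (1.36) and Rpl17 (1.23). The median gene varied by 0.26, and Rps23 varied least, with 0.11. Single libraries near 0 enter these values. BM day 1 replicate 3 had 0.143 CPM of Rps13 and 0 of Rpl17. Rpl13a, whose level is uncertain, was at 0 in that library, AM day 1 replicate 3 and BM day 3 replicate 1. The SD without these libraries was not computed. Relative to the median of the 85 genes, Rpl23a was at −4.74 in BM day 1 and between −2.31 and −1.07 in the other groups.

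From day 1 to day 3 most of the family rose in the BM-derived macrophages. In this comparison 67 of the 85 genes were higher at day 3 and 0 were lower (edgeR, adjusted p under 0.05), where 25.9% of all tested genes were called and 10.6% were called higher and 15.2% lower. The median log2 fold change (day 3 less day 1) was 0.94, against −0.05 for all tested genes, and 58 genes did not overlap between the days, against 12.3% of all tested genes. The BM day 1 libraries are the same as in the day 1 comparison, so the count is not an independent one. Rpl21 rose by 2.95 ± 0.30 on the log2 scale (edgeR adjusted p = 7.6e-08), with 225, 204, 151 and 104 CPM at day 3. Rpl23a rose by 3.20 ± 0.56, with 61.6, 76.4, 100.4 and 136 CPM, and Rps21, a small subunit protein, by 2.25 ± 0.26. All 3 stalk genes rose, by 1.03 for Rplp1, 0.67 for Rplp2 and 0.54 for Rplp0. The rise of Rplp2 was close to the threshold (edgeR adjusted p = 0.045) and was called in 17 of 36 other fits, with log2 fold changes of 0.32 to 0.78 and adjusted p-values of 0.023 to 0.32. Among the fits that lost it were DESeq2, the replicate block, the compared groups alone and those without BM day 1 replicate 1, 2, 3 or 5 or BM day 3 replicate 1 or 2. The 4 day 3 libraries of Rpl21 and Rpl23a lay above the 5 day 1 libraries. In a fit to BM day 1 and BM day 3 alone the count was 41. Monocyte and recruited macrophage markers stood at 2816 to 3331 CPM at day 1 and at 11763 to 29212 CPM at day 3. Alveolar macrophage markers stood at 1074 to 2070 and 2110 to 4595 CPM, and B cell markers at 14.6 to 53.4 and 65.7 to 228 CPM. Endothelial markers were lower at day 3 (172 to 425 and 69.1 to 169 CPM). Each of these lists was without overlap, and their part in the result was not tested.

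**Figure D3:**
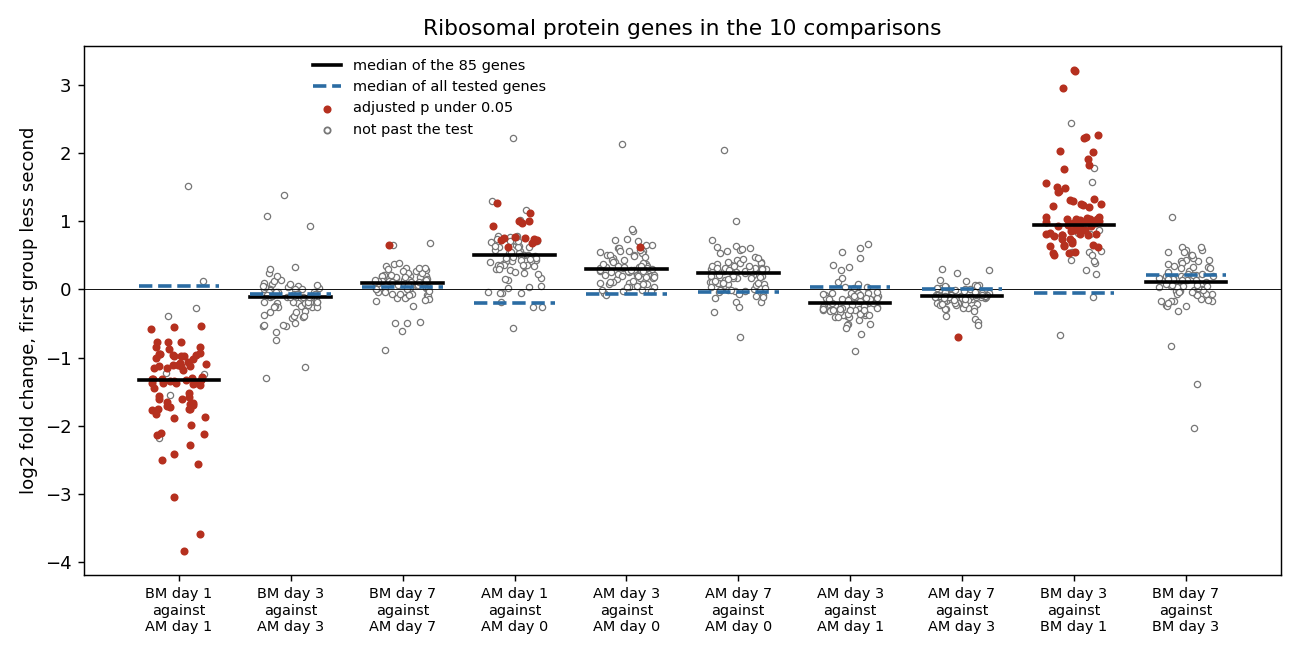
log2 fold change (vertical axis, first group less second) of 84 ribosomal protein genes in each of the 10 comparisons (horizontal axis); red points passed edgeR's test, solid lines are medians of the 85 genes and dashed lines medians of all tested genes. Called genes are frequent in the 2 comparisons with BM day 1 (76 lower, 67 higher) and in AM day 1 against day 0 (15 higher); Rpl39l is left out.

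A part of the family was higher in resident cells on day 1 after LPS than in untreated ones. In AM day 1 against day 0, 15 of the 85 genes were higher and 0 were lower (edgeR, adjusted p under 0.05), while 6.28% of all tested genes were called, 3.22% higher and 3.06% lower. The median log2 fold change of the 85 was 0.50, against −0.20 over all tested genes, and 77 of the 85 values were positive. Monocyte and recruited macrophage markers were higher at day 1 (665 to 1345 against 174 to 223 CPM), as were neutrophil markers (95.9 to 541 against 51 to 64 CPM). T and NK cell markers were lower (57.5 to 154 against 389 to 492 CPM), as were those of lung epithelium (24.1 to 67.8 against 161 to 295 CPM), endothelium (33.7 to 70.4 against 98.3 to 160 CPM) and B cells (2.92 to 133 against 151 to 183 CPM). None of these 6 lists overlapped between the days, and their part in the result was not tested. Rpl4, a large subunit protein whose loop reaches the peptide tunnel, had 911, 969 and 1180 CPM at day 0 and 1717, 2122, 1414 and 1617 CPM at day 1 (0.75 ± 0.15, edgeR adjusted p = 0.0019), and it was called in every fit run. Rpl38, known in mice for the translation of Hox mRNAs, had 106, 101 and 163 CPM at day 0 and 296, 434, 179 and 273 CPM at day 1 (1.26 ± 0.29). Both genes were higher in every day 1 library than in any day 0 library.

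Rplp2 (1.12 ± 0.29), Rpl36a (1.00 ± 0.26) and Rpl12, which holds the base of the stalk (0.99 ± 0.23), rose as well. Rps6 passed the test with 0.62 ± 0.18, although 1 day 0 library, at 640 CPM, lay just above the lowest of day 1 at 639 CPM, and the call was made in 22 of 37 other fits. The remaining genes called higher were Rpl18, Rpl19, Rpl22, Rpl23, Rpl27, Rpl35, Rps3a1, Rps23 and Rps25, with log2 fold changes of 0.68 to 0.97. Rplp0 (0.16 ± 0.18, edgeR adjusted p = 0.72) did not pass. The count depended on single libraries: it was 1 without AM day 0 replicate 1, 2 without AM day 0 replicate 2, 29 without AM day 0 replicate 3, 4 without AM day 1 replicate 2 and 8 without AM day 1 replicate 1. Replicate 3 of day 0 held 4.66% of its counts in the 85 genes, inside the range of day 1.

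In the fit to all groups, few or no genes were called in the resident cells at the later days. Against day 0, 1 gene was called at day 3 (2.51% of all tested genes were called, 1.78% as higher): Rpl4, at 1668, 1553 and 1473 CPM, with a log2 fold change of 0.62 ± 0.16 and an edgeR adjusted p of 0.032. This call was made in 26 of 37 other fits (adjusted p of 0.0037 to 0.24), and it was lost with the replicate block, with the range of library numbers, without AM day 0 replicate 1 or 2 and without any 1 of the 3 AM day 3 libraries. At day 7, edgeR called 0 of the 85 genes (0.677% of all tested genes), 8 had an unadjusted p under 0.05 and DESeq2 called 1, which was lower. Fitted to the compared groups alone, edgeR called 7 genes at day 3 and 11 at day 7 against day 0. In the fit to all groups the medians of the 85 were 0.30 at day 3 and 0.23 at day 7, smaller than the 0.50 of day 1. These 3 comparisons share the day 0 libraries. Between day 1 and day 3, edgeR called 0 of the 85 (0.834% of all tested genes), 3 had an unadjusted p under 0.05 and DESeq2 called 1 as lower, with a median log2 fold change of −0.20.

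Rplp0 was lower at day 7 than at day 3 in the resident cells. It had 749, 1171, 690 and 835 CPM in AM day 7, against 1390, 1370 and 1416 CPM in AM day 3. The log2 fold change was −0.69 ± 0.17 (edgeR adjusted p = 0.036). Rplp0 was the 1 gene of the 85 called there (1.18%). That share is below the share of all tested genes, of which 1.59% were called and 1.35% were called lower. Whether Rplp0 differed from the other stalk genes was not tested. The highest day 7 library lay below the lowest day 3 library. The call was made in 26 of 37 other fits, with log2 fold changes of −0.88 to −0.59 and adjusted p-values of 0.0053 to 0.42. It was lost with the Y-linked covariate, the range of library numbers and the replicate block, without any 1 of the AM day 3 libraries and without AM day 7 replicate 1, 3 or 4. Fitted to the compared groups alone, 9 of the 85 genes were called, Rplp0 among them. Y-linked genes stood at 0.149 to 4.02 CPM in AM day 7 and 192 to 223 CPM in AM day 3. This level and day cannot be told apart between these groups, so the loss with the covariate does not separate them. Lung epithelial markers stood at 173 to 229 and 25.8 to 66.5 CPM. Also higher were T and NK cell (287 to 319 against 79.5 to 212) and endothelial markers (77 to 106 against 58.5 to 76). Alveolar macrophage markers were higher too (27820 to 32078 against 20719 to 25224). Lower were monocyte and recruited macrophage (427 to 897 against 2124 to 9155), neutrophil (61.1 to 72 against 155 to 358) and B cell markers (2.33 to 6.51 against 13.3 to 39.1). None of these lists overlapped. Their part in the result was not tested. Rplp1 had 1089 to 1314 CPM at day 7 and 1143 to 1236 CPM at day 3, and Rplp2 645 to 772 against 735 to 810 CPM, ranges that overlapped. Rpl3 was next, at −0.52 ± 0.17, and was not called (edgeR adjusted p = 0.20).

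Rplp0 was also called between the cell types at day 7. It had 1544, 1507 and 1021 CPM in BM day 7 and was the 1 gene of the 85 called against AM day 7 (0.66 ± 0.18, edgeR adjusted p = 0.0497; 1.77% of all tested genes were called, 1.48% as higher). BM day 7 replicate 3, at 1021 CPM, the library that stood apart in its markers, lay below AM day 7 replicate 2, at 1171 CPM, so the groups overlapped, and the adjusted p was close to 0.05. This call was made in 10 of 37 other fits, with log2 fold changes of 0.54 to 0.84. Fitted to the compared groups alone, 3 of the 85 genes were called and Rplp0 was not. AM day 7 enters both comparisons that called Rplp0, so they are not independent. In both, the share of the 85 genes called, 1.18%, was below that of all tested genes.

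At day 3 none of the 85 genes passed edgeR's test between the cell types. It called 0 of the 85 genes (3.98% of all tested genes), 7 had an unadjusted p under 0.05 and DESeq2 called 1 as lower in BM. The median log2 fold change was −0.12, against −0.07 for all tested genes. Between BM day 3 and day 7, edgeR again called 0 (3.98% of all tested genes), with 7 at an unadjusted p under 0.05 and 0 by DESeq2, and the median was 0.11 against 0.21. From mean CPM in libraries numbered above 25 under the common prefix, the median log2 difference (day 7 less day 3) was 0.30 (2 libraries a day). Within those below 25 it was −0.24 (1 against 2 libraries). The latter were BM day 7 replicate 3 and BM day 3 replicates 1 and 2. Of these, BM day 7 replicate 3 and BM day 3 replicate 1 stood apart in their markers.

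**Figure D4:**
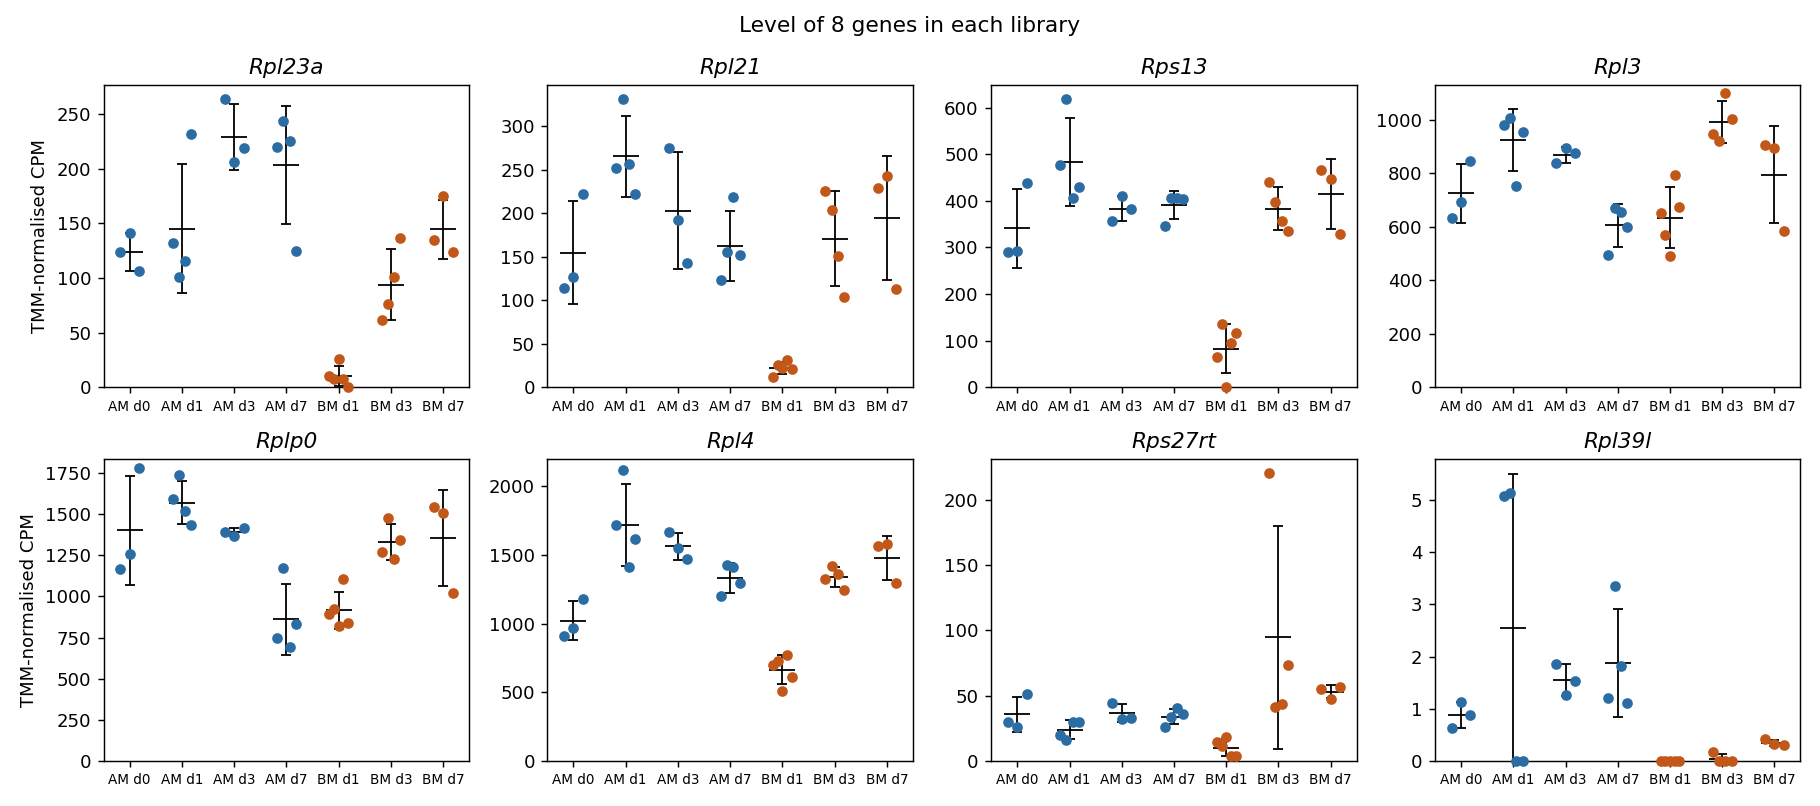
TMM-normalised CPM (vertical axis, starting at 0, its own scale in each panel) of 8 ribosomal protein genes by cell type and day. Points are libraries (blue AM, orange BM), bars mean ± SD; Rpl23a, Rpl21, Rps13 and Rpl4 are lowest in BM day 1, Rplp0 is at 690 to 1171 CPM in AM day 7, and Rpl39l is at 0 in all BM day 1 libraries.

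Of the 7 paralogs, 4 were lower in BM day 1 than in AM day 1 and 0 higher, with a median log2 fold change of −1.23. Rpl22l1, which takes the place of Rpl22, was lower with it in BM day 1 (−1.75 ± 0.34), and so were Rps27l, a p53 target (−1.58 ± 0.23), and Rpl7l1 (−0.85 ± 0.22). Rpl22l1 had 84.7, 86.5, 32 and 72 CPM in AM day 1 and 25.9, 28.3 and 37.6 CPM in untreated AM, ranges that overlapped in 1 library (1.17 ± 0.39, edgeR adjusted p = 0.076). Rpl3l and Rpl36al had at most 32.8 and 5.86 CPM in any library.

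Rpl39l, known from male germ cells, had most of its counts in the resident cells. Its counts were 50, 96 and 31 in AM day 0, 73, 64, 0 and 0 in AM day 1, 24, 18 and 17 in AM day 3 and 33, 69, 36 and 11 in AM day 7. In BM it had 0 counts in all 5 day 1 libraries, 2, 0, 0 and 0 at day 3 and 8, 8 and 3 at day 7. With a floor of 3 counts over the group, its summed level was at least 68.6-fold higher in AM day 1 than BM day 1. This bound covers counting error in the sums only, not the spread between libraries. The groups overlapped, because 2 AM day 1 libraries also had none. AM day 3 stood 54.7-fold above BM day 3 (95% interval 14.5 to 462, 59 against 2 counts) and AM day 7 5.45-fold above BM day 7 (3.37 to 9.30), intervals that cover counting error only. Its coding sequence is as long as that of Rpl39, 156 bases, and the 2 are equal at 133 of them (85.3%). They are shown, with the differing bases in capitals, because the 2 genes share no 50-base word, so their counts can be read apart. Sequences are 5′ to 3′ from the GENCODE transcripts of GRCm38 (Rpl39, chrX:37082520-37085402, minus strand; Rpl39l, chr16:10170226-10174911, plus strand).
Rpl39: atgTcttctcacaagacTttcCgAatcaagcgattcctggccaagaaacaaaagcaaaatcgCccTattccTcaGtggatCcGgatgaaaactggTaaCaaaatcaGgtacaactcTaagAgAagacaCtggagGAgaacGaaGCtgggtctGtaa
Rpl39l: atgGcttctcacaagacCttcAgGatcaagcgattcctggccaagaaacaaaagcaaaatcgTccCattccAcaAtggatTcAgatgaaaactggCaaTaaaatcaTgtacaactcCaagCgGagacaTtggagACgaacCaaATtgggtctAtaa
Rpl39 itself had 80.4 to 110 CPM in BM day 1 and 245 to 427 CPM in AM day 1 (−1.72 ± 0.21, edgeR adjusted p = 4.0e-07).

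Rps27rt is the opposite case. It is named as a retrogene of Rps27, and its 255 coding bases are identical to those of Rps27 in all 255 positions. Of the 50-base words of Rps27, 98.6% also lie in Rps27rt or another gene, so reads of the 2 genes can hardly be told apart and their separate values are uncertain. The shared coding sequence is shown for that reason (Rps27, chr3:90212522-90213651, minus strand; Rps27rt, chr9:114982366-114982739, minus strand; GRCm38).
Rps27 and Rps27rt: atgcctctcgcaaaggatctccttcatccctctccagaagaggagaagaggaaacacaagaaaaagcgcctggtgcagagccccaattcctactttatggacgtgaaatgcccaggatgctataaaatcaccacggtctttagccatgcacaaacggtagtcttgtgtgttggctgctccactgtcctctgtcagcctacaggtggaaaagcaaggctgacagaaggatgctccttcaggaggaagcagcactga
Rps27rt had 14.2, 11.5, 18.1, 3.57 and 3.60 CPM in BM day 1 and 220, 41.2, 43.2 and 73.3 CPM in BM day 3, a rise of 3.21 ± 0.50 on the log2 scale (edgeR adjusted p = 3.6e-05) that held in all other fits run. In BM day 3 replicate 1, the library with fibroblast markers, Rps27rt stood at 220 CPM and Rps27 at 88.5 CPM. In the other 3 libraries of that group Rps27 stood at 271 to 496 CPM, above Rps27rt. Without that library and BM day 1 replicate 3 together, the rise of Rps27rt was 2.68 and 68 of the 85 genes were called higher.

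Start-site sequences were looked at for the TOP motif. RefSeq's promoter table (GRCm38.p6) holds 65 of the 85 genes. Rpl21, Rpl23a and Rplp1 are among the 20 that are not in it. The words CTTTC or CTTTT, on the strand of transcription and within 30 bases of the start site, were found in 28 of the 65 genes (43.1%) and in 15.5% of the 27025 genes in the table. On the other strand (GAAAG or AAAAG) they were found in 18.5% and 15.7%. Over the 300 bases of each promoter and on both strands, CCGGAAG was found in 40.0% of the 65 genes and 9.93% of all, TCTCGCGA in 16.9% and 1.13%, and AAGATGG in 15.4% and 7.28%. The 7 windows below run from 30 bases before to 20 after the RefSeq start, with CTTTC and CTTTT in capitals. They are shown for Rps6 and Rplp2, the Rps27 pair, the most reduced genes in the table and the paralog Rpl39l.
Rps6, chr4:86857348-86857397, minus strand: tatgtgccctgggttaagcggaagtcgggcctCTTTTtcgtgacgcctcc
Rplp2, chr7:141447621-141447670, plus strand: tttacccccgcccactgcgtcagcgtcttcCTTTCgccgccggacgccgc
Rps27, chr3:90213629-90213678, minus strand: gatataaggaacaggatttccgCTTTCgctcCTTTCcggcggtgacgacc
Rps27rt, chr9:114982720-114982769, minus strand: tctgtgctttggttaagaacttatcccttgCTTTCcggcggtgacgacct
Rpl36a, chrX:134585624-134585673, plus strand: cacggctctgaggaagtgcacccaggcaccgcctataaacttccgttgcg
Rps13, chr7:116334171-116334220, minus strand: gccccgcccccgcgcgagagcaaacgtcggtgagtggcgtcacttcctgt
Rpl39l, chr16:10170198-10170247, plus strand: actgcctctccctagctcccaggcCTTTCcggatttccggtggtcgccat
The 28 genes with either word had a median log2 fold change of −1.33 in BM day 1 against AM day 1, and the 37 without had −1.32. In AM day 1 against day 0 the medians were 0.58 and 0.53. A match is a description of letters and not of a site.

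Other genes of the translation machinery were also lower at day 1, where 29% of all tested genes were called, 13.8% lower and 15.2% higher. Of 25 tested mRNAs with a TOP motif outside the family, 16 were lower in BM day 1 than in AM day 1 and 0 higher (median −0.69), among them the histone chaperone Nap1l1 (−2.52 ± 0.21) and the nascent chain binder Naca (−1.97 ± 0.23). Of 35 ribosome biogenesis genes, 17 were lower and 1 higher (median −1.37). Gar1, of the particles that modify ribosomal RNA, had 4.85 to 11.1 CPM in BM day 1 and 20.6 to 70.6 CPM in AM day 1 (−2.85 ± 0.53, edgeR adjusted p = 0.00018). Of 77 mitochondrial ribosomal protein genes, 19 were lower and 0 higher (median −1.31), and they held 0.0887% to 0.146% of counts in BM day 1 and at least 0.163% elsewhere. The 19 of 77 are below the share of all tested genes called in either direction and above the 13.8% called lower.

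The list for mTORC1 and translation control went both ways at day 1, with 6 of 21 genes higher in BM and 4 lower (median 0.20). Mtor, the kinase itself, had 85.1 to 141 CPM in BM day 1 and 16.6 to 36.2 CPM in AM day 1 (1.92 ± 0.29, edgeR adjusted p = 1.3e-05), and its partner Rptor was at 1.18 ± 0.36. Akt1s1, an inhibitor of mTORC1, was lower (−1.87 ± 0.33). From day 1 to day 3 in BM, where 25.9% of all tested genes were called (10.6% higher, 15.2% lower), 20 of 25 TOP mRNAs rose and 0 fell (median 0.75), 13 of 77 mitochondrial ribosomal protein genes rose and 0 fell, 4 biogenesis genes rose and 4 fell, and 2 control genes rose and 6 fell.

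In the resident cells, AM day 1 against day 0 called 4 of 25 TOP mRNAs, 4 of 35 biogenesis genes, 2 of 21 control genes, 1 of 77 mitochondrial ribosomal protein genes and 3 of 125 tested ribosomal protein pseudogenes, all higher, where 6.28% of all tested genes were called and 3.22% were called higher. Eef1g, a subunit of an elongation factor, had 246 to 358 CPM at day 0 and 479 to 722 CPM at day 1 (1.00 ± 0.20, edgeR adjusted p = 0.0019). Eif6, which keeps the subunits apart until the large one is mature, had 84.8 to 119 CPM and 248 to 404 CPM (1.75 ± 0.33), and Larp1, which binds TOP motifs, was at 1.01 ± 0.19. The day 0 and day 1 libraries did not overlap for Eef1g and Eif6.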

How the data were processed

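The deposited table holds raw counts per gene for 26 libraries. Per the submitters' processing notes, the tools were FastQC 0.11.9, Trimmomatic 0.39, HISAT2 2.1.0 and featureCounts 2.0.0 with the GRCm38 genome; strand settings and the treatment of reads that match several genes are not given in the sources used here. Gene IDs were matched to GENCODE M21 (55227 of 55487).

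The counts were fitted with edgeR 4.0.16 (R 4.3.3, robust quasi-likelihood test, TMM factors, genes kept by filterByExpr with a minimum count of 10). All 26 libraries entered 1 model with a coefficient per cell type and day, and 10 comparisons were made with Benjamini-Hochberg adjustment over the 17143 genes tested; genes with an adjusted p under 0.05 are the ones called. Levels are TMM-normalised CPM (counts scaled to 1000000 per library), and per-kilobase levels use the length of 1 representative mRNA. The fitting was tested on simulated data. Total counts of 9176202 to 80816742 per library limit the precision for genes of low level.

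Alternatives were DESeq2 1.42.0, its size factors, library size alone, TMM factors without the 85 genes, no filter, fits to the compared groups alone, a replicate block, the range of library numbers, a Y-linked covariate and fits without single libraries. Added after seeing the data were fits without the BM day 1 libraries and the tests of cell type by day. Replicate numbers of the titles showed no pairing, since none of 69 same-numbered pairs had a correlation of deviations over 0.1. In the column names of the counts some replicates carry other numbers than in the titles. Pairing by those numbers was not tested, so this check cannot say whether samples were paired.

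The genes and gene lists were chosen with earlier results of these data known. Named genes were the stalk genes, Rpsa, Rps6, Rpl3, Rpl5, Rpl11, Rpl13a, Rps27a and paralog pairs, up to 4 called genes per direction and comparison with the largest change and no overlap between groups, the 3 highest and lowest per kilobase, the 5 that varied most, those at the threshold, and up to 3 per list and comparison; genes outside this rule, such as Rpl7a, Rps10 and Rps23, are named where a count is small or a range ends with them. Values of 1 gene that the rule names are not reported here; it stays in the counts and medians of the 85 genes.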

Additional observations from a re-analysis of the deposited data

Results flagged for a closer look

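In 10 of 139 groups of 4 or 5 libraries of the named genes, 1 library lay far from the rest. The rule flags about 1 in 20 groups by chance where genes are independent and not picked for their spread. That rate does not carry over here, because the genes share their libraries and some were named because they vary most. Among the flagged, Rpl13a, Rps13 and Rpl17 were named for that, and the flag of Rpl39l rests on 2 counts. BM day 3 replicate 1 accounts for 4 of them: Rpl13a was at 0 CPM (the others at 15.1 to 17.5), Rpl39l at 0.165 (the others at 0), Rpl3l at 32.8 (the others at 0 to 5.32) and Rps6 at 987 (the others at 678 to 720). BM day 1 replicate 3 had Rpl17 at 0 CPM (the others at 75.9 to 99.6). AM day 1 replicate 2 had Rps27 at 491 CPM (the others at 286 to 294) and Rps27a at 531 (the others at 300.3 to 332). AM day 7 replicate 1 had Rpl22 at 309 CPM (the others at 367 to 377) and Rps13 at 346 (the others at 403 to 407). BM day 3 replicate 3 had Rpl22l1 at 70.5 CPM (the others at 21.1 to 28).

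The change from day 1 to day 3 differed between the cell types. edgeR's test of that difference called 60 of the 85 genes (11.5% of all tested genes), all 60 with a higher value in BM, and the median of the 85 differences was 1.15 on the log2 scale. The BM day 1 libraries carry a prefix of their own, which cannot be told apart from this group. For the change from day 3 to day 7 the same test called 0 of the 85 (0.362% of all tested genes), with 2 at an unadjusted p under 0.05.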

How the results depend on the processing

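The median log2 fold change of the 85 genes ran from −1.46 to −1.17 in 36 other fits of BM day 1 against AM day 1 and from 0.80 to 1.01 in 36 of BM day 3 against BM day 1. It changed sign in 1 of 37 fits each for BM day 7 against AM day 7 (lowest −0.01) and AM day 7 against AM day 3 (highest 0.01). Fitted to the compared groups alone, BM day 3 against BM day 1 gave 41 genes, BM day 7 against AM day 7 gave 3, AM day 3 against day 0 gave 7, AM day 7 against day 0 gave 11 and AM day 7 against AM day 3 gave 9. With DESeq2, AM day 1 against day 0 gave 27, and BM day 3 against AM day 3, AM day 7 against day 0 and AM day 3 against AM day 1 gave 1 each. AM day 7 against day 0 also gave 1 with library size alone and with no filter. The range of library numbers as a term gave 4 for AM day 1 against day 0 and 0 for BM day 7 against AM day 7, AM day 3 against day 0 and AM day 7 against AM day 3. The Y-linked covariate gave 0 for BM day 7 against AM day 7 and AM day 7 against AM day 3, and BM day 7 against AM day 7 also gave 0 with DESeq2's size factors and with TMM factors without the 85 genes. Without the BM day 1 libraries, BM day 3 against AM day 3 gave 2, BM day 7 against AM day 7 gave 0, AM day 1 against day 0 gave 23 and AM day 3 against AM day 1 gave 1. Without BM day 1 replicate 3 and BM day 3 replicate 1 together, AM day 1 against day 0 gave 29, AM day 3 against day 0 gave 2, and BM day 3 against AM day 3, AM day 7 against day 0 and AM day 3 against AM day 1 gave 1 each. Leaving out each library in turn gave 71 to 78 for BM day 1 against AM day 1, 59 to 69 for BM day 3 against BM day 1, 1 to 29 for AM day 1 against day 0, 0 to 3 for AM day 3 against day 0, and 0 to 1 for BM day 3 against AM day 3, BM day 7 against AM day 7, AM day 7 against day 0, AM day 3 against AM day 1 and AM day 7 against AM day 3. BM day 7 against BM day 3 gave 0 in all 37 other fits. The replicate block used the title numbers (69 same-numbered pairs, correlations of −0.11 to 0.09), which some column names of the counts do not share. With this block the counts were 75 for BM day 1 against AM day 1, 63 for BM day 3 against BM day 1, 13 for AM day 1 against day 0 and 0 for the other 7 comparisons. The share in AM day 3 was 4.58% with pseudogenes added. The cause of these changes was not tested, also not for the fits to the compared groups alone, which have fewer libraries. Genes with few counts, such as Rpl39l, Rpl36al, Rpl24 and Rpl3l, have the widest errors.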
